A study of Mus musculus with 6 samples.

Results

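The genes described here encode the digestive enzymes of the lysosome, their helper proteins and proteins of the lysosomal membrane. The list was drawn up by name and holds 41 genes of the 21899 gene identifiers in the count table: 10 cysteine proteases, 3 other peptidases, 11 glycosidases, 4 sulfatases or sulfamidases, 4 lipid hydrolases, 3 activators or sterol carriers, 4 membrane proteins, the protease inhibitor Cst3 and progranulin (Grn). All 41 were found in the table by gene identifier. Both groups were BV2 cells, an immortalized mouse microglial line, that carried an shRNA from a lentivirus with a puromycin resistance gene. The 3 sh-TonEBP libraries came from cells with an shRNA against TonEBP, the transcription factor that the gene Nfat5 encodes, and the 3 sh-NC libraries from cells with a scrambled shRNA. The labels give no stimulus to either group. A single shRNA was used, and the sources do not tell whether the cells of a group were 1 clone or whether its 3 libraries were grown as separate cultures. The p-values therefore reflect no more than library-to-library spread, and that spread could be technical.

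The lysosome is the acidic compartment in which cells break down proteins, glycans, glycosaminoglycans and lipids. Most of its hydrolases are made as precursors, tagged with mannose 6-phosphate in the Golgi and carried to endosomes by receptors, and loss of single enzymes causes lysosomal storage diseases in humans. The transcription factors TFEB, TFE3 and MITF switch on many lysosomal genes by binding a short DNA element, the CLEAR motif, whose core is the E-box CACGTG with flanking bases. In microglia the lysosome digests phagocytosed debris, myelin and pathogens, and several cathepsins and progranulin are known from studies of neuroinflammation.

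Promoter stretches are shown here as examples for 5 of the 10 members found to carry the CLEAR core. Ctsd, Gla and Ctsa hold its full palindrome, Lamp1 holds 4 E-boxes in its one-sided form, and Sgsh holds a single copy. Gaa, Lgmn, Arsa, Glb1 and Naglu, which are not printed, also hold a single one-sided copy. They were taken from RefSeq on the mouse build GRCm38.p6, an older build than that of the counts, and each is printed 5′ to 3′ on the strand of its gene, with the CLEAR core in capitals (TCACGTGA, or TCACGTG and its reverse complement CACGTGA). Ctsd, Lamp1 and Sgsh were called higher in sh-TonEBP cells, whereas Gla and Ctsa were not called. The stretches lie at chr7:142387874-142388077 (minus strand) for Ctsd, chr8:13159054-13159160 (plus strand) for Lamp1, chr11:119355511-119355584 (minus strand) for Sgsh, chrX:134601148-134601255 (minus strand) for Gla and chr2:164833715-164833772 (plus strand) for Ctsa, all upstream of the start of transcription.
Ctsd: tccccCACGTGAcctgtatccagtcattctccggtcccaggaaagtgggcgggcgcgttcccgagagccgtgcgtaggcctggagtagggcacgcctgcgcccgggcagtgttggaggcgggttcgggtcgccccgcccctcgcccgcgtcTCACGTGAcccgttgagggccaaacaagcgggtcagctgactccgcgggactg
Lamp1: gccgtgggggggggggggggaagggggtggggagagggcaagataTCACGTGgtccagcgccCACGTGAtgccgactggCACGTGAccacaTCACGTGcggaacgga
Sgsh: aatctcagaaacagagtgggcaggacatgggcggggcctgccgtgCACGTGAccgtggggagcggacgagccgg
Gla: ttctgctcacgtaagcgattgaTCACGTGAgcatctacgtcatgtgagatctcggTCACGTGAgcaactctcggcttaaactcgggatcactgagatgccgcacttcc
Ctsa: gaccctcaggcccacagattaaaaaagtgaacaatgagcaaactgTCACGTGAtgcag

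The libraries held 13621188 to 16140042 counts in sh-TonEBP and 15288505 to 15555269 in sh-NC, and levels are given in CPM, which are counts divided by TMM-scaled library sizes. A level of 3 counts, the limit that a count of 0 allows for counting error only, corresponded to 0.188 to 0.216 CPM in sh-TonEBP and 0.192 to 0.199 CPM in sh-NC. Nfat5, the target of the shRNA, had 244, 291 and 379 CPM in the sh-TonEBP libraries, against 618, 772 and 617 CPM in the sh-NC libraries, and was lower in all of them (edgeR log2 fold change -1.14, standard error 0.16, adjusted p = 0.00016). The labelled cell type was checked against 28 markers of microglia and macrophages, of which 16 stood under 1 CPM in every library, and C1qa, P2ry12 and Siglech had no count at all. The summed level of these markers was 112 to 129 CPM in sh-TonEBP and 124 to 131 CPM in sh-NC. The 13 fibroblast markers summed to 2605 to 3050 CPM in sh-TonEBP and 1220 to 1271 CPM in sh-NC. Most of that sum was Col3a1, Fn1 and Col5a1 (means 1372, 665 and 492 CPM in sh-TonEBP and 342, 336 and 419 CPM in sh-NC). Thy1 stood at 0 in every library. Of the 9 that were tested 7 were higher (77.8%, against 26.3% of all genes tested) and none lower (against 26.2%). Dcn, among the 7, had 41, 43 and 47 counts in sh-TonEBP and 1, 4 and 1 in sh-NC. Col1a1, also among the 7, had 59, 36 and 27 counts in sh-TonEBP and 13, 7 and 15 in sh-NC. Both passed the filter on low counts through the sh-TonEBP libraries, where they were high. That filter removed 4 listed markers, so the 7 do not stand for the whole list. The 12 epithelial markers summed to 1223 to 1531 CPM in sh-TonEBP and 654 to 782 CPM in sh-NC, with Krt14 at 0, but most of that sum was the keratin Krt8 (1198 ± 142 CPM in sh-TonEBP and 565 ± 58.1 CPM in sh-NC; SD, n = 3 each), and of the 4 that were tested 1 was higher (Krt8), 1 was lower (Grhl2, log2 fold change -2.04) and 2 did not pass. In these bulk samples, fewer cells of a type and less RNA per cell cannot be told apart, and the part of such markers in the results on lysosomal genes was not tested.

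Of the 41 lysosomal genes, 36 passed the filter on low counts and were tested, with p-values from edgeR's quasi-likelihood test adjusted by Benjamini-Hochberg over all 11943 genes tested. At an adjusted p under 0.05, 17 of the 36 (47.2%) were higher in sh-TonEBP cells, where 26.3% of all genes tested were higher. Only Ctsl was lower (2.78%), where 26.2% of all genes tested were lower. The other 18 did not pass in either direction, and 11 of these had a positive log2 fold change. The median log2 fold change of the 36 was 0.30, and that of all genes tested was 0.00072. In 18 of the 36 every sh-TonEBP library stood above every sh-NC library (31.2% of all genes tested), and in Ctsl every sh-TonEBP library stood below (31.5% of all genes tested). The changes were modest in size, since 10 of the 17 higher genes had a log2 fold change of at least 0.5 and Cst3 alone passed 1. The count of higher genes varied with the libraries used: it was 11 without sh-NC 3, and between 14 and 19 when any 1 of the other 5 was left out. Without sh-NC 3 the share of all genes tested that were higher was also smaller, at 20.6%. The median log2 fold change of the members was then 0.29.

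**Figure D1:**
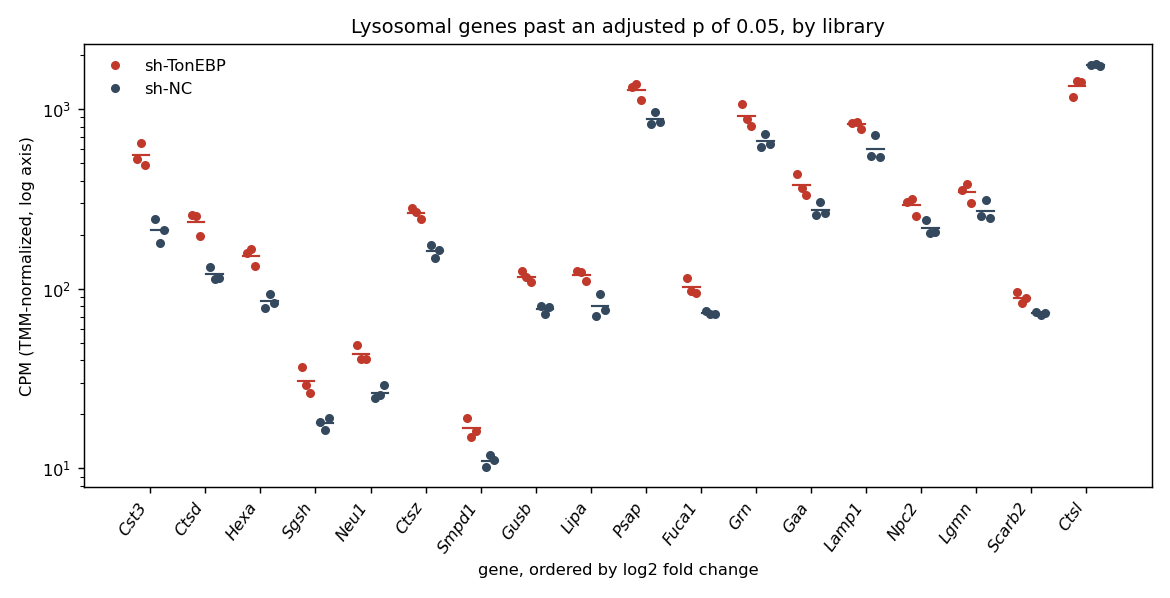
TMM-normalized level in CPM (vertical log axis) of the 18 lysosomal genes with an adjusted p under 0.05, in each sh-TonEBP library (red points) and each sh-NC library (blue points), with the group means as bars. Genes are ordered by log2 fold change, and apart from Lgmn no gene had overlapping groups, with Ctsl at the right as the only gene that was lower in sh-TonEBP.

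Cystatin C, encoded by Cst3, is a secreted inhibitor of cysteine cathepsins, and among the members its transcript had the largest change. It stood at 525, 645 and 491 CPM in the sh-TonEBP libraries, against 245.5, 179 and 211 CPM in the sh-NC libraries. Every sh-TonEBP library stood far above every sh-NC library, and the gap between the groups exceeded the spread within either. The mean was 554 ± 80.9 CPM in sh-TonEBP and 212 ± 33.1 CPM in sh-NC (SD, n = 3 each), which is 2.61-fold higher, or 1.39 on the log2 scale (standard error 0.15, adjusted p = 2.1e-05). The level per kilobase of transcript, which allows genes to be compared with each other, put Cst3 at rank 2 among the members in sh-TonEBP (644 CPM per kb) and at rank 5 in sh-NC (247 CPM per kb).

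Among the cysteine proteases, endopeptidases and exopeptidases of the papain family together with legumain, calls were found in both directions. Among the 7 that were tested, 2 had a call for higher levels (28.6%, near the 26.3% of all genes tested) and 1 for lower levels and 4 had none, and their median log2 fold change was 0.15. Ctsl encodes cathepsin L, an endopeptidase, and had the highest level per kilobase of all members in both groups, 680 CPM per kb in sh-TonEBP and 891 CPM per kb in sh-NC. Its values were 1165, 1442 and 1413 CPM in the sh-TonEBP libraries, against 1756, 1783 and 1731 CPM in the sh-NC libraries. The sh-NC libraries lay close together, and all sh-TonEBP libraries stood below them, with sh-TonEBP 1 the lowest. The log2 fold change of Ctsl was -0.39 (standard error 0.12, adjusted p = 0.019), 0.763 of the control level. This call was lost without sh-TonEBP 1 (log2 fold change -0.30, adjusted p = 0.052), without sh-NC 3 (-0.40, adjusted p = 0.064) and after removal of trends across genes with transcript length and GC content (-0.17, adjusted p = 0.15).

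Ctsz encodes cathepsin Z, a carboxypeptidase that microglia also secrete, and it rose where Ctsl fell. Its level was 280.1, 269 and 244 CPM in the sh-TonEBP libraries, against 176, 148 and 164 CPM in the sh-NC libraries, with a clear gap between the groups. The means of 264 ± 18.5 CPM in sh-TonEBP and 162 ± 13.8 CPM in sh-NC (SD, n = 3 each) differed by 0.70 on the log2 scale (standard error 0.11, adjusted p = 0.00033). Lgmn encodes legumain, an asparaginyl endopeptidase that processes cathepsin precursors. It passed the test with overlapping groups, 356, 383 and 301 CPM in sh-TonEBP against 254, 312 and 249 CPM in sh-NC, with 0.35 as the log2 fold change (standard error 0.13, adjusted p = 0.038). The sh-TonEBP 3 library stood below sh-NC 2. The call of Lgmn was lost without sh-TonEBP 1, sh-TonEBP 2, sh-NC 1 or sh-NC 3 (adjusted p = 0.059 to 0.16) and with the trends removed (adjusted p = 0.082).

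The abundant Ctsb, which encodes cathepsin B, averaged 788 ± 48.9 CPM in sh-TonEBP and 718 ± 56.9 CPM in sh-NC (SD, n = 3 each), a log2 fold change of 0.13 that did not pass (adjusted p = 0.35). With the trends removed it passed at 0.26 (adjusted p = 0.038). Ctso had a log2 fold change of 0.15 (adjusted p = 0.35), and Ctsh, an aminopeptidase, one of 0.37 (adjusted p = 0.19) at 4.10 to 6.86 CPM in sh-TonEBP and 3.96 to 4.87 CPM in sh-NC. The cathepsins best known from osteoclasts and from antigen-presenting cells were at the bottom of the range. Ctsk, of osteoclasts, had 6, 10 and 11 counts in sh-TonEBP and 16, 6 and 14 counts in sh-NC. Ctss, which in antigen-presenting cells cleaves the invariant chain and which is a marker of microglia in the brain, had 9, 6 and 8 counts in sh-TonEBP and 7, 4 and 4 counts in sh-NC, too few to be tested. Ctsc, which activates serine proteases of granules, had no count in sh-TonEBP and a single count in sh-NC, and Ctsf had none in any library.

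Ctsd encodes cathepsin D, the main aspartic protease of the lysosome, and after Cst3 it had the largest rise among the members. It stood at 258, 255.4 and 196 CPM in the sh-TonEBP libraries, against 133, 113.5 and 115 CPM in the sh-NC libraries. The groups did not overlap, although sh-TonEBP 3 lay well below the other two. The means were 236 ± 35.3 CPM in sh-TonEBP and 120.5 ± 10.9 CPM in sh-NC (SD, n = 3 each), and the level was 1.96-fold higher (log2 fold change 0.97, standard error 0.13, adjusted p = 0.00011). The serine carboxypeptidase Ctsa, which protects Neu1 and Glb1 in a complex, had a log2 fold change of 0.12 (adjusted p = 0.38). Tpp1, a tripeptidyl peptidase that is lost in a form of neuronal ceroid lipofuscinosis, had one of -0.08 (adjusted p = 0.54).

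The makeup of the cathepsin transcripts differed between the groups. Ctsl made up 52.0, 57.1 and 60.0% of the summed cathepsin level per kilobase in the sh-TonEBP libraries, against 68.7, 72.1 and 69.8% in the sh-NC libraries. Ctsd made up 10.7, 9.37 and 7.70% in sh-TonEBP, against 4.82, 4.25 and 4.30% in sh-NC. Ctsz made up 17.1, 14.6 and 14.2% in sh-TonEBP, against 9.39, 8.19 and 9.02% in sh-NC. For these 3 genes no library of one group reached the range of the other, and no test of the shares was made. The shares were not corrected for the trends with transcript length and GC content. Ctsl had a GC content of 44.7%, and Ctsz and Ctsd had 57.3% and 55.9%. With the trends removed, the log2 fold change was -0.17 for Ctsl (adjusted p = 0.15), 0.36 for Ctsz and 0.71 for Ctsd. The summed CPM of the cathepsins itself overlapped, at 2711, 3038 and 2809 in sh-TonEBP and 3040.03, 2896 and 2948.5 in sh-NC. Set against the cysteine proteases that it inhibits, Cst3 had 0.537, 0.577 and 0.472 of their summed level per kilobase in the sh-TonEBP libraries, against 0.217, 0.159 and 0.192 in the sh-NC libraries. These are ratios of transcripts, and neither protein nor enzyme activity was measured.

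**Figure D2:**
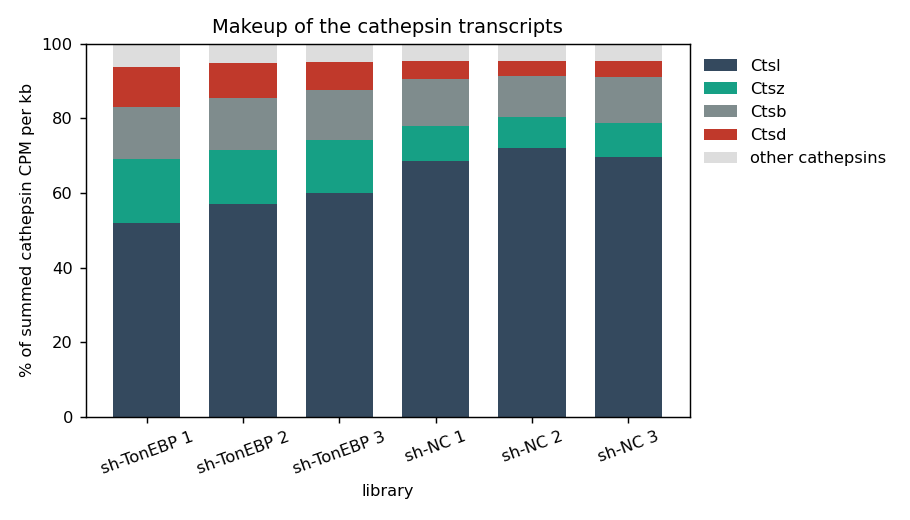
Share of each cathepsin in the summed cathepsin level per kilobase (percent, vertical axis) in the 3 sh-TonEBP libraries (left) and the 3 sh-NC libraries (right). The Ctsl share was 52.0 to 60.0% in sh-TonEBP and 68.7 to 72.1% in sh-NC, and the Ctsd and Ctsz shares were larger in every sh-TonEBP library than in any sh-NC library.

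The glycosidases trim sugars from glycoproteins, glycolipids and glycosaminoglycans. Of the 11 members 5 were higher (45.5%, against 26.3% of all genes tested) and 6 did not pass. None was lower (26.2% of all genes tested), and the median log2 fold change was 0.31. Hexa, the alpha subunit of beta-hexosaminidase that degrades GM2 ganglioside, had 159, 167 and 134 CPM in the sh-TonEBP libraries, against 78.1, 93.6 and 83.4 CPM in the sh-NC libraries. All sh-TonEBP libraries stood above all sh-NC libraries, and the level was 1.80-fold higher (log2 fold change 0.85, standard error 0.12, adjusted p = 0.00017). Neu1, a sialidase that removes terminal sialic acids, had 48.8, 40.9 and 40.4 CPM in the sh-TonEBP libraries, against 24.6, 25.5 and 29.2 CPM in the sh-NC libraries. The gap between the groups was wider than the spread within either, with 0.71 as the log2 fold change (standard error 0.13, adjusted p = 0.0009). Gusb, the beta-glucuronidase of glycosaminoglycan breakdown, had 125, 116 and 109 CPM in the sh-TonEBP libraries, against 80.4, 72.6 and 79.0 CPM in the sh-NC libraries. Its groups did not overlap either (log2 fold change 0.59, standard error 0.11, adjusted p = 0.00086).

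The other glycosidases with a call changed less. Fuca1, an alpha-fucosidase, averaged 102 ± 11.0 CPM in sh-TonEBP and 73.3 ± 1.84 CPM in sh-NC (SD, n = 3 each; log2 fold change 0.48, adjusted p = 0.004). Gaa, the acid alpha-glucosidase that digests glycogen, averaged 377 ± 52.2 CPM in sh-TonEBP and 275 ± 24.1 CPM in sh-NC (SD, n = 3 each; log2 fold change 0.46, adjusted p = 0.0098), and its call was lost without sh-NC 3 (adjusted p = 0.0503) and with the trends removed (adjusted p = 0.18). Man2b1, an alpha-mannosidase, and Glb1, the lysosomal beta-galactosidase, missed the threshold with groups that did not overlap (log2 fold changes 0.31 and 0.28, adjusted p = 0.056 and 0.059). Naglu, which acts on heparan sulfate, had a log2 fold change of 0.28 (adjusted p = 0.14), with sh-TonEBP 3 the lowest of its group at 52.4 CPM. These last 3 passed without sh-TonEBP 3 (adjusted p = 0.031 for Man2b1, 0.037 for Glb1 and 0.016 for Naglu). Manba, a beta-mannosidase, had the same mean of 103 CPM in both groups, and the 95% interval of its log2 fold change ran from -0.24 to 0.24. Gla, an alpha-galactosidase, and Idua, which removes iduronic acid, had log2 fold changes of -0.06 and -0.15 that did not pass (adjusted p = 0.74 and 0.45).

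The sulfatases and the sulfamidase remove sulfate groups from glycans and glycolipids. Sgsh, the sulfamidase of heparan sulfate breakdown, was higher, with 36.8, 29.1 and 26.3 CPM in the sh-TonEBP libraries, against 18.2, 16.3 and 19.1 CPM in the sh-NC libraries. Every sh-TonEBP library stood above every sh-NC library, and the log2 fold change was 0.78 (standard error 0.15, adjusted p = 0.0013). Arsa, which desulfates sulfatides of myelin, and Ids, which acts on iduronic acid 2-sulfate, had log2 fold changes of 0.17 and -0.06 and did not pass (adjusted p = 0.31 and 0.75). Ids gained a call with the trends removed, where its log2 fold change was 0.43 (adjusted p = 0.0018). Arsb had no count in sh-TonEBP and 0, 1 and 1 counts in sh-NC. Of the enzymes that take heparan sulfate apart, Sgsh and Gusb were therefore higher, while Naglu, Ids and Idua did not pass.

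Of the 4 lipid hydrolases, 2 were higher (50%, against 26.3% of all genes tested) and 2 did not pass. Lipa, the acid lipase that frees cholesterol and fatty acids from lipoproteins, had 126, 123.5 and 111 CPM in the sh-TonEBP libraries, against 70.6, 93.4 and 76.1 CPM in the sh-NC libraries. The groups did not overlap, and the log2 fold change was 0.58 (standard error 0.13, adjusted p = 0.0023). Smpd1, the acid sphingomyelinase, had 19.2, 15.0 and 16.1 CPM in the sh-TonEBP libraries, against 10.1, 11.9 and 11.1 CPM in the sh-NC libraries. It stood higher in all sh-TonEBP libraries at a low level (log2 fold change 0.60, standard error 0.16, adjusted p = 0.0073). Asah1, the acid ceramidase, and Ppt1, a palmitoyl-protein thioesterase, had log2 fold changes of 0.10 and 0.15 and did not pass (adjusted p = 0.57 and 0.28), but both passed with the trends removed (log2 fold changes 0.42 and 0.39, adjusted p = 0.0034 and 0.0027).

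Helper proteins of these enzymes were among the most abundant members. Psap encodes prosaposin, the precursor of the saposins that present sphingolipids to their hydrolases. Its level was 1334, 1379 and 1121 CPM in the sh-TonEBP libraries, against 832, 965 and 846 CPM in the sh-NC libraries. The lowest sh-TonEBP library stood above the highest sh-NC library, and the log2 fold change was 0.54 (standard error 0.13, adjusted p = 0.0039). Npc2, which binds cholesterol in the lumen and passes it to Npc1, averaged 291 ± 31.2 CPM in sh-TonEBP and 217 ± 20.5 CPM in sh-NC (SD, n = 3 each; log2 fold change 0.42, adjusted p = 0.011), and lost its call without sh-TonEBP 2 (adjusted p = 0.052) or sh-NC 3 (adjusted p = 0.061). Gm2a, the activator that works with Hexa on GM2 ganglioside, had 5, 2 and 4 counts in sh-TonEBP and 3, 1 and 0 counts in sh-NC and was not tested.

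Grn encodes progranulin, a secreted glycoprotein that is cut into granulins in the lysosome and whose loss causes frontotemporal dementia and, when complete, a ceroid lipofuscinosis. It had 1068, 883 and 809 CPM in the sh-TonEBP libraries, against 619, 732 and 642 CPM in the sh-NC libraries. All sh-TonEBP libraries lay above all sh-NC libraries, with sh-TonEBP 1 well above the other two. The log2 fold change was 0.47 (standard error 0.13, adjusted p = 0.011), and the call was lost without sh-NC 3 (adjusted p = 0.053) and with the trends removed (0.21, adjusted p = 0.13). Per kilobase, Psap stood at 481 CPM per kb in sh-TonEBP and 332 CPM per kb in sh-NC, and Grn at 393 CPM per kb in sh-TonEBP and 284 CPM per kb in sh-NC, which in sh-NC placed them next after Ctsl.

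Of the 4 membrane proteins, 2 were higher (50%, against 26.3% of all genes tested) and 2 did not pass. Lamp1, a heavily glycosylated protein that lines the lysosomal membrane, averaged 825 ± 38.9 CPM in sh-TonEBP and 603 ± 100 CPM in sh-NC (SD, n = 3 each; log2 fold change 0.45, adjusted p = 0.013), and its call was lost without sh-NC 1 (adjusted p = 0.053) or sh-NC 3 (adjusted p = 0.082). Scarb2, the receptor that carries glucocerebrosidase to lysosomes, averaged 89.4 ± 6.56 CPM in sh-TonEBP and 73.0 ± 1.42 CPM in sh-NC (SD, n = 3 each; log2 fold change 0.29, adjusted p = 0.038). Its call held only without sh-TonEBP 2 among the runs that left out a library (adjusted p = 0.062 to 0.12 without any other), although no library of a group reached the other group. Lamp2, which also serves chaperone-mediated autophagy, had a log2 fold change of 0.27 (adjusted p = 0.11), which became 0.40 without sh-TonEBP 1 (adjusted p = 0.011) and 0.84 with the trends removed (adjusted p = 1.8e-06). Npc1, the membrane partner of Npc2, had a log2 fold change of -0.10 and did not pass (adjusted p = 0.53).

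**Figure D3:**
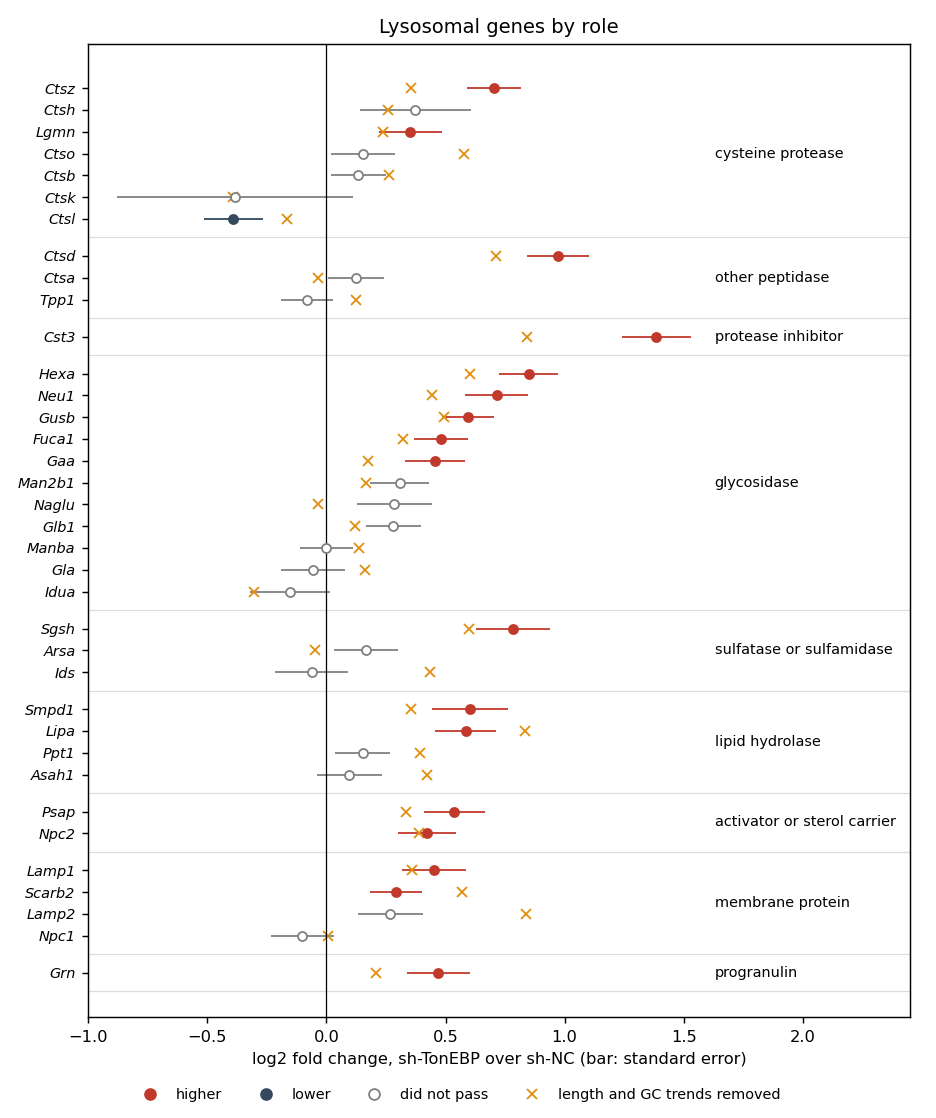
Log2 fold change, sh-TonEBP over sh-NC, of the 36 tested lysosomal genes by role (points, with the standard error as bars), and the same value after trends with transcript length and GC content across all genes were removed (crosses). Of these genes 28 lay above 0, from Cst3 at 1.39 down to Ctsl at -0.39, and the trend-removed values of Lamp2, Ctso and Ids lay well above their points.

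As a whole, the 41 genes took up 0.981, 1.01 and 0.918% of the counts in the sh-TonEBP libraries, against 0.792, 0.811 and 0.796% in the sh-NC libraries. Without Ctsl, their summed level was 8753, 8796 and 7592 CPM in sh-TonEBP and 6142, 6517 and 6050.01 CPM in sh-NC. The sh-TonEBP libraries were not alike in this respect. The sh-TonEBP 3 library had the lowest level of its group for 28 of the 36 tested genes, and the median log2 difference of the members from the sh-NC mean was 0.41, 0.36 and 0.20 in sh-TonEBP 1, 2 and 3. This library was also the one with the fewest counts and with the highest Nfat5 level of its group. No relation between Nfat5 and the members was tested over so few libraries.

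Across all genes tested, the log2 fold change went with the properties of the transcripts, with a Spearman correlation over 99.9% of these genes of -0.28 with transcript length and 0.42 with GC content, where genes are not independent replicates. The tested members had a median transcript length of 2730 bases and a median GC content of 52.0%, and all genes tested had 2996 bases and 50.5%. When smooth trends with both properties were removed, 20 members were higher and none was lower, and 29.3% of all genes tested were higher. Of the 18 members called before, 14 kept a call, with Ctsl, Lgmn, Gaa and Grn lost and Ctsb, Ctso, Ids, Asah1, Ppt1 and Lamp2 gained. Cst3, Ctsd and Hexa remained among the larger changes at log2 fold changes of 0.84, 0.71 and 0.60, while Ctsz moved to 0.36. Other called members moved by more than 1.5 times as well: Neu1 to 0.44, Psap to 0.33, Fuca1 to 0.32, Smpd1 to 0.36 and Scarb2 to 0.57. The part of these trends in the other results was not tested.

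Lysosomal genes outside the 41 were read from lists drawn up by function. Of 30 other lysosomal hydrolases, 23 were tested, with 12 higher (52.2%), 1 lower (4.35%) and a median log2 fold change of 0.40. The shares over all genes tested were 26.3% higher and 26.2% lower. Pld3, an exonuclease of endosomal DNA, averaged 89.2 ± 11.3 CPM in sh-TonEBP and 38.4 ± 1.48 CPM in sh-NC (SD, n = 3 each; log2 fold change 1.22, adjusted p = 1.7e-05). Siae, which removes acetyl groups from sialic acids, and Dnase2a, the acid endonuclease, were also higher (log2 fold changes 0.95 and 0.87, adjusted p = 8.1e-05 and 0.00017). The single lower gene was Hyal1, a hyaluronidase, at 6.64, 7.36 and 5.76 CPM in the sh-TonEBP libraries, against 33.7, 23.7 and 26.3 CPM in the sh-NC libraries. Its groups stood far apart, with a log2 fold change of -2.08 (adjusted p = 6.4e-06), larger in size than that of any member.

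Of 37 other lysosomal membrane proteins, 34 were tested, with 11 higher (32.4%), 3 lower (8.82%) and a median log2 fold change of 0.15. The shares over all genes tested were 26.3% higher and 26.2% lower. The tetraspanin Cd63, a resident of late endosomes, averaged 878 ± 96.2 CPM in sh-TonEBP and 370.4 ± 53.9 CPM in sh-NC (SD, n = 3 each; log2 fold change 1.25, adjusted p = 2.8e-05). Mfsd12, a carrier of cysteine into lysosomes and melanosomes, was higher as well (log2 fold change 1.29, adjusted p = 2.1e-05). Lower were Cd68, a glycoprotein of macrophage lysosomes (log2 fold change -1.59, adjusted p = 5.7e-05), and Slc38a9, the arginine sensor that informs mTORC1 (log2 fold change -0.94, adjusted p = 0.00017, and -0.40 with the trends removed). Cd68 stood at 4.29 ± 0.80 CPM in sh-TonEBP and 13.0 ± 1.55 CPM in sh-NC (SD, n = 3 each), and is also a microglial marker.

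Of 32 genes for the delivery of enzymes to the lysosome, all were tested, and the median log2 fold change was 0.18. On this list 11 were higher (34.4%, against 26.3% of all genes tested) and 5 lower (15.6%, against 26.2%). Sort1, a sorting receptor that binds prosaposin and progranulin, averaged 12.7 ± 0.28 CPM in sh-TonEBP and 5.30 ± 0.64 CPM in sh-NC (SD, n = 3 each; log2 fold change 1.26, adjusted p = 0.00012). Its relative Sorcs2 and the adaptor Gga2, which packs mannose 6-phosphate receptors into vesicles, had log2 fold changes of 2.57 and 1.14 (adjusted p = 3.8e-05 and 5.4e-05). Sorcs2 stood at a low level, with 89, 66 and 64 counts in the sh-TonEBP libraries, against 11, 10 and 16 in the sh-NC libraries. The endocytic receptor Lrp2 (megalin) was lower, at 22.0, 19.9 and 20.2 CPM in the sh-TonEBP libraries against 62.0, 62.1 and 58.6 CPM in the sh-NC libraries. The libraries of each group agreed closely with each other (log2 fold change -1.56, adjusted p = 2.8e-06, and -0.99 with the trends removed).

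Other protease inhibitors were read beside Cst3. Of 21 on a list of cystatins, serpins and TIMPs, 9 were tested, with a median log2 fold change of 0.88. Of these 8 were higher (88.9%, against 26.3% of all genes tested) and none lower (against 26.2%). Cstb, the intracellular cystatin B, averaged 131 ± 8.33 CPM in sh-TonEBP and 75.7 ± 11.6 CPM in sh-NC (SD, n = 3 each; log2 fold change 0.79, adjusted p = 0.00037, and 0.48 with the trends removed). Timp2, an inhibitor of matrix metalloproteinases, averaged 518 ± 55.3 CPM in sh-TonEBP and 262 ± 4.76 CPM in sh-NC (SD, n = 3 each; log2 fold change 0.98, adjusted p = 4.3e-05). The serpin Serpinb6b was higher at a low level (log2 fold change 1.12, adjusted p = 0.00023). Serpinb1a, also among the 8, had 69, 82 and 54 counts in the sh-TonEBP libraries, against 6, 11 and 7 in sh-NC. It passed the filter through the sh-TonEBP libraries, where it was high. The filter removed 12 listed inhibitors, so these 8 do not stand for the whole list.

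**Figure D4:**
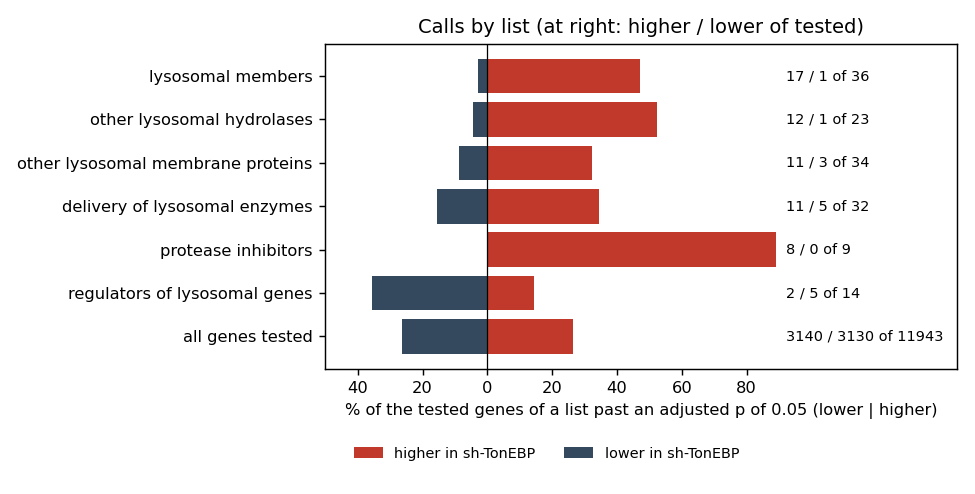
Share of the tested genes of each list that were higher (red, to the right) or lower (blue, to the left) in sh-TonEBP at an adjusted p under 0.05, with the counts at the right edge. The lysosomal members had 47.2% higher and 2.78% lower, and all genes tested had 26.3% and 26.2%.

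The regulators of lysosomal genes went in both directions. Of 16 listed, 14 were tested, with 2 higher (14.3%), 5 lower (35.7%) and a median log2 fold change of -0.11. The shares over all genes tested were 26.3% higher and 26.2% lower. Tfeb had 10.4, 8.68 and 6.84 CPM in the sh-TonEBP libraries, against 5.13, 3.78 and 3.32 CPM in the sh-NC libraries, higher in all libraries of sh-TonEBP (log2 fold change 1.08, standard error 0.23, adjusted p = 0.002). Mitf had 4.70, 4.91 and 6.27 CPM in the sh-TonEBP libraries, against 9.24, 11.7 and 9.78 CPM in the sh-NC libraries. It was lower in all sh-TonEBP libraries, opposite to Tfeb (log2 fold change -0.96, standard error 0.19, adjusted p = 0.0014, and -0.55 with the trends removed). Tfe3, the most abundant of the family here, averaged 55.9 ± 6.99 CPM in sh-TonEBP and 52.3 ± 3.18 CPM in sh-NC (SD, n = 3 each; log2 fold change 0.10, adjusted p = 0.53), and Tfec had no count in any library. Of the Rag GTPases that bring TFEB and mTORC1 to the lysosome, Rragd was lower (log2 fold change -0.92, adjusted p = 0.00044) and Rragc higher (log2 fold change 0.45, adjusted p = 0.0035). The location and phosphorylation of these factors, which set their activity, were not measured.

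A promoter window, from 250 bases before to 50 bases after the start of transcription, was found for 37 of the 41 genes. The E-box CACGTG was found in 12 of the 37, where 7.15% of all 32851 windows in the table hold it. The one-sided CLEAR core TCACGTG, searched on both strands and always overlapping an E-box, was found in 10 of the 37, where 3.77% of all windows hold it. By outcome these were 5 of the 17 higher genes (Ctsd, Gaa, Lamp1, Lgmn and Sgsh) and 5 of the 14 genes that did not pass (Arsa, Ctsa, Gla, Glb1 and Naglu). The full palindrome TCACGTGA was found in Ctsd, Ctsa and Gla, where 0.974% of all windows hold it. In the stretches printed above, Lamp1 has 4 E-boxes, which begin 61, 45, 28 and 15 bases before the start, and Ctsd has an E-box 98 bases before it inside the palindrome. Cst3, Hexa and Ctsz, all called higher, had no E-box in this window. The tonicity-responsive element that TonEBP binds was searched as a consensus on both strands. It was found in none of the 37, where 2.85% of all windows hold it. At so low a share, no match among 37 does not set the members apart from all windows. Sites farther from the start of transcription were not searched, so this does not show that the members lack the element. A match describes letters only, and binding of TFEB, TFE3, MITF or TonEBP was not measured in these data.

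Some counts may include reads of a neighbour, because the strand setting of the counting is not given in the sources used here. In an older annotation, exons of Ctsa overlap those of Pltp and Neurl2 on the opposite strand, those of Ctsb overlap Fdft1, those of Sgsh overlap Card14 and those of Lamp1 overlap Grtp1. Exons of Ctsl overlap an antisense gene over 1742 bases and a processed pseudogene over 395 bases, and those of Glb1 overlap Tmppe on the same strand. Exons of Ctsd share 670 bases with Gm49369 on the same strand, a gene that had no count in any library. The values of these genes are uncertain to that extent.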

How the data were processed

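For 3 sh-TonEBP and 3 sh-NC libraries of poly(A) RNA, the authors deposited a table of raw read counts per gene. Tools named in the submitters' processing notes are HISAT2 2.0.5, HTSeq 0.9.1, cutadapt 1.15 and DESeq 1.30.0, with GRCm39 as the build and no role for any of them. Annotation release, strandedness and treatment of multiply matching reads: not given in the sources used here. TonEBP is absent from the headers of the sh-TonEBP columns, which were mapped as those of the only other shRNA of the series, with Nfat5 as a check. Libraries of a group differed by more than sampling noise (chi-square per degree of freedom 5.33 to 29.3).

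Counts were filtered with filterByExpr, normalized by TMM and tested with edgeR 4.0.16 in R 4.3.3 (robust quasi-likelihood, shRNA as the only term, Benjamini-Hochberg). Standard errors come from the log2 fold change and its F statistic. Length and GC content are those of the principal transcript in GENCODE M21 (GRCm38), and trends with both were fitted by mgcv 1.9.3 and removed as offsets. Promoters came from RefSeq (GRCm38.p6).

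The members and lists were chosen with earlier results of these data known. Values in every library are given for called members with an absolute log2 fold change of at least 0.5 and for the 3 most abundant per length, and other genes with such values were added after these were seen. Per list outside the members and the cell type markers, the 4 genes with the smallest p are named, with the factors of the TFEB family. Other settings were DESeq2 1.42.0, RLE factors, library totals, no filter, a filter at 1 CPM, a replicate block, each library left out, a stricter p and the study's cutoffs. Steps were tested on simulated data with 200 changed genes. Of genes changed by 0.5 on the log2 scale 22.0% were called in the right direction, and of those changed by 1, 83.3%. Of the calls 6.71% were false. In the data themselves 3140 genes were called higher and 3130 lower, far more than 200. The threshold that the adjustment sets depends on that number, so these shares do not carry over to this comparison.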

Additional observations from a re-analysis of the deposited data

How the results depend on the processing

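The same 18 members were called with RLE factors, library totals alone, a mean of at least 1 CPM, DESeq2 and the replicate number as a block (17 higher, 1 lower in each), and no filter added Man2b1. In all 14 settings at an adjusted p under 0.05, 11 members were called: Cst3, Ctsd, Hexa, Ctsz, Gusb, Neu1, Sgsh, Lipa, Psap, Fuca1 and Smpd1. Same-numbered libraries deviated together with correlations across genes of 0.18, 0.056 and -0.072. With 3 libraries a group these values cannot tell whether the numbers pair the samples. The block changed no call of a member. Leaving out each library in turn gave 11 to 19 higher members, 0 to 1 lower members and a median log2 fold change of 0.28 to 0.42, with the lowest count without sh-NC 3 and the highest median without sh-TonEBP 3. The number of lower members was 0 with trends removed, at an adjusted p under 0.01 and at the study's cutoffs. At an adjusted p under 0.01, 12 members were higher, and 2163 of all 11943 genes tested were higher. The study's cutoffs were a log2 fold change over 1 or under -1 with an unadjusted p under 0.05. These cutoffs left 1 higher member, Cst3, and 762 higher and 1019 lower genes in all. With trends removed Ids turned to 0.43 (adjusted p = 0.0018), against -0.06 before, and the cause was not tested. The 21 tested genes named from the lists outside the 41, set to these alternatives after the data were seen, kept their call or lack of a call in all 14 settings. Those that moved by more than 1.5 times did so with trends removed, to -0.40 for Slc38a9, -0.55 for Mitf, 0.48 for Cstb and -0.99 for Lrp2, and the uncalled Tfe3 changed sign (-0.15). With 3 libraries a group, members such as Man2b1 and Glb1 with changes of about 0.3 on the log2 scale cannot be placed on either side of the threshold.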
